A study of Drosophila melanogaster with 3 samples.

Results

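The genes described here are 50 homeobox developmental regulators of Drosophila melanogaster other than the Hox genes, taken by symbol from a list and set beside the other 13895 of 13945 protein-coding genes on the 6 main chromosome arms (2L, 2R, 3L, 3R, 4 and X). All 50 symbols were found in the dm6 annotation. They comprise segmentation genes (eve, ftz, prd, en, inv, gsb and gsb-n), the maternal and zen-class genes bcd, cad and zen2, columnar genes of the neuroectoderm (vnd, ind and Dr), mesodermal and NK-cluster genes (tin, bap, slou, lbe, lbl and C15), appendage genes (Dll, al, B-H1 and B-H2), the Iroquois complex (mirr, ara and caup), the TALE cofactors hth and exd, eye, head and glial genes (so, ey, toy, Rx, ro and repo), LIM-homeodomain genes (ap, tup, Awh, Lim1 and Lim3), POU and Cut genes (pdm3, vvl, acj6 and ct) and other neural and head genes (otp, Ptx1, unpg, unc-4, Gsc, bsh and scro).

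A homeobox encodes the homeodomain, a helix-turn-helix fold that binds short AT-rich DNA sequences, and proteins that carry it act as transcription factors. In the fly embryo such factors divide the trunk into segments, mark columns of the neuroectoderm, specify muscle and heart progenitors and later pattern eyes, legs and neurons. Many of their genes have large intergenic and intronic control regions, and several lie in the genome as neighbouring paralogs.

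The data were ChIP-seq of Neu2, a ZAD-family protein with zinc fingers, in 1 group of 3 biological replicates: whole Neu2-GFP embryos aged 2 to 4 h, male and female together, in which a stably expressed transgene places GFP at the C-terminus of Neu2. Chromatin was sonicated to fragments of 200 to 800 bp, precipitated with an antibody to GFP, and peaks were called against a control. There was no second group of samples, so every comparison is between these 50 genes and the other genes of the same lists, and none of them was tested. A whole embryo is a mixture of cell types, so a site occupied in few cells and a site occupied weakly in many cannot be told apart.

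The authors' optimal list held 1471 peaks with signals of 88.6 to 998 and a median of 119. Relaxed lists of 30000 calls, which hold peaks together with background, were available for each replicate and for the pooled replicates. The top calls of a replicate are its 1471 strongest by signal. Median signals at the optimal peaks differed between libraries (46.5, 47.0 and 32.3 for replicates 1 to 3), so a replicate's signal was divided by its own median and is given as relative signal. Depth per library was unknown, because the lists hold no read counts.

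Few of these homeobox genes had an optimal Neu2 peak at a start site. Over their bodies such peaks were about as frequent as over all genes before gene length was taken into account. Of the 50 genes, 1 (2%), the Pax6 gene ey, had an optimal summit at a transcription start site (TSS), meaning at most 1000 bp away, against 1216 of the other genes (8.75%). Because some genes have several TSSs, the other genes were also weighted to the homeobox genes' numbers of TSSs, which gave 9.40%, equal to 4.70 of 50 genes. Over the gene body with 2 kb either side, 8 of the 50 (16%) had an optimal summit, against 2056 other genes (14.8%). These 8 were otp, Lim1, lbl, hth, ftz, ey, mirr and ro, and they held 10 distinct peaks.

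The homeobox genes are long, with a median of 12.1 kb, and a long gene can hold more summits. When the other genes were weighted to the same lengths, 21.8% of them had a summit over the body and flanks, equal to 10.9 of 50 genes, so 8 was below the share at like length. The counts by length were small. Among genes under 2 kb, 1 of 5 homeobox genes had a summit, against 9.29% of other genes. Among genes of 2 to 5 kb, 1 of 12 had one, against 15.5%. Of genes of 5 to 10 kb, 0 of 5 had one, against 20%. These shorter classes hold most of the segmentation genes, which are compact. Among genes of 10 to 20 kb, 2 of 14 had a summit, against 22.9% of other genes. In the class of 20 to 50 kb, 3 of 11 had one, against 28.6%. Above 50 kb the gene with a summit was hth, 1 of 3, against 40.5%. The homeobox share was the lower in each class other than the shortest, where the single gene was ftz. In the class of 20 to 50 kb the shares were close (27.3% against 28.6%). With so few genes per class, this order is not a result about any class.

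**Figure D1:**
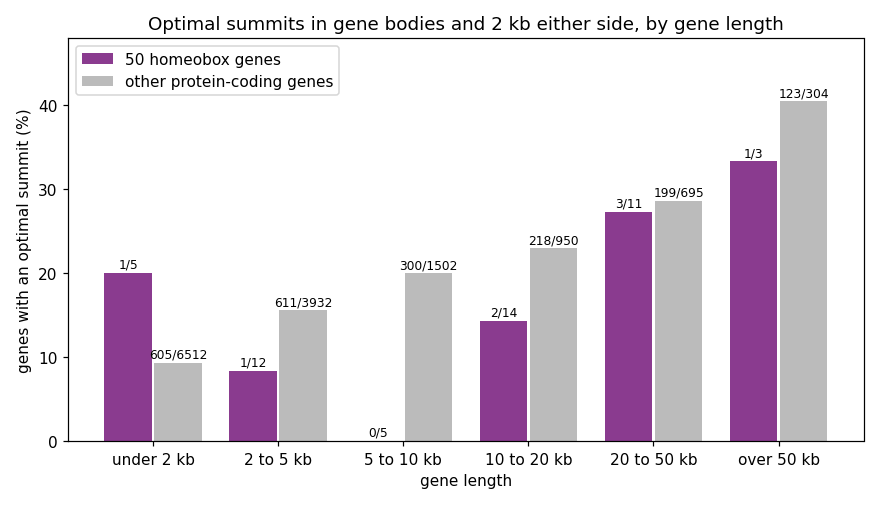
Percentage of genes with an optimal Neu2 summit in the gene body with 2 kb either side, by gene length, for the 50 homeobox genes (purple, left bar of each pair) and the other protein-coding genes (grey), with the number of genes over the bars. The purple bar is lower in each class other than genes under 2 kb, and each purple bar rests on at most 3 genes with a summit.

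The sequences at 6 of the 10 summits are shown because they cover the 4 intronic peaks (mirr, hth, lbl and Lim1), the peak at the start site of a neighbour (ro), and the 1 peak in a TSS window of a homeobox gene (ey). Each is read from the plus strand of the RefSeq Release 6 genome (dm6), reaching 50 bp to either side of the summit, apart from ro, where 61 bp are given. Capitals mark matches on either strand to the words searched, which were TAATTA (a homeodomain core), TATCGATA (the DNA replication-related element, DRE), CAGGTAG (bound by Zelda), GAGAG (bound by GAGA factor), GGTCACAC (the core promoter word Motif 1) and AGGTGGCG (from the CTCF motif).
mirr, chr3L:12694671-12694771: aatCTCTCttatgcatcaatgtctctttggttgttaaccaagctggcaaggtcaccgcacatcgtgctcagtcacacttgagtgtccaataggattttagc
hth, chr3R:10635900-10636000: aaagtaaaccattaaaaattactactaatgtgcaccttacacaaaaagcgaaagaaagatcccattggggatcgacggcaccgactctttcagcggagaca
lbl, chr3R:21429231-21429331: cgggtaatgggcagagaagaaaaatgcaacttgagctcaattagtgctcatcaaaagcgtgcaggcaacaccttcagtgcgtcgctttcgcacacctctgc
Lim1, chrX:8774141-8774241: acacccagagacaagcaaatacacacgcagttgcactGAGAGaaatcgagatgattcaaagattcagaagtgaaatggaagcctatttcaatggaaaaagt
ro, chr3R:26875743-26875803: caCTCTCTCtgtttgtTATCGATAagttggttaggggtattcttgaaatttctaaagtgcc
ey, chr4:696818-696918: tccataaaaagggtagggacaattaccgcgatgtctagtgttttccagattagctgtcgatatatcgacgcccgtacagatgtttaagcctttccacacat

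GAGAG was found in 3 of the 10 summit windows (mirr, ro and the intronic Lim1 peak), against 172 of all 1471 optimal windows (11.7%). TATCGATA was found in 1 of 10 (ro), against 49 of all windows (3.33%). TAATTA was found in 0 of 10, against 6.66% of all windows, and the other words, each in 1.22% of all windows or fewer, were also in 0 of 10. The AT content of the 10 windows averaged 52.5% (range 38.6 to 60.4), against 60.5% over all optimal windows (range 26.7 to 84.2). A word in a window is a description of its letters and not a binding site.

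By position, 4 of the 10 peaks lay in introns (Lim1, lbl, hth and mirr), 1 in a coding exon (otp), 1 in a 3′ UTR (ftz) and 4 between genes (lbl, ey, ro and Lim1). No shares over the whole optimal list are set beside these positions, so they are a description of the 10 peaks. The 4 intergenic summits were 821 to 1372 bp outside the homeobox gene. The nearest TSS was that of another gene for otp, ey, ro and the intergenic lbl peak. Counting peaks only where the nearest TSS was the gene's own, 5 of the 50 genes (10%) had one, namely mirr, ftz, hth, lbl and Lim1, against 7.92% of other genes, or 14.2% when these were weighted to length.

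Of the other neural and head genes, otp, a regulator of hindgut and brain development, had the strongest peak of the 50 genes. The summit lay 13003 bp downstream of the nearest otp TSS in a coding exon, at 2R from 20884361 to 20884800, and 4651 bp from the TSS of Cib2. The pooled signal was 317, rank 62 of 1471. Replicate signals were 91.9, 121 and 104, or 1.98, 2.58 and 3.22 times each replicate's median, with a mean of 2.59 ± 0.622 (SD, n = 3). Every replicate was above its median there, and this was the 1 of the 10 peaks matched within 200 bp by a top call in all 3 replicates. Of the others, 4 peaks were matched in 2 replicates and 5 in 1. In the whole optimal list, 638 of the 1471 peaks were matched in all 3 replicates. Top calls are chosen by signal, and 3 of the 10 peaks were above the median pooled signal of the list (119). The 10 peaks were not compared with peaks of like rank, so whether they were matched less often than such peaks was not tested.

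Of the LIM-homeodomain genes, Lim1, which acts in leg and neuronal patterning, had 2 peaks. The intronic summit lay 11162 bp downstream of the nearest TSS, at X from 8773971 to 8774410, with a pooled signal of 150.4 and rank 415. Its replicate signals were 56.1, 67.8 and 20.9, and the relative mean was 1.1 ± 0.409 (SD, n = 3). Replicates 1 and 2 were above their medians and had top calls there, and replicate 3 was below its own. The other Lim1 peak lay 1040 bp beyond the gene, 29854 bp from the TSS, at X from 8755279 to 8755718. Its pooled signal of 90.4, rank 1395, was close to the lowest of the list, and its replicate signals were 38.2, 34.8 and 13.6, with a relative mean of 0.661 ± 0.213 (SD, n = 3). Each replicate was below its median there.

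In the NK cluster, which holds muscle and heart identity genes, 1 of the 6 genes (16.7%) had optimal peaks, against 18.6% of other genes of the same lengths. lbl, which specifies muscle and heart progenitors, had a summit in an intron 4852 bp downstream of its TSS, at 3R from 21429061 to 21429500, with a pooled signal of 123 and rank 694. Replicate signals were 55.3, 59.1 and 18.6, and the relative mean was 1.01 ± 0.375 (SD, n = 3). As at the Lim1 intron, replicates 1 and 2 were above their medians and replicate 3 was below. A further summit lay 1372 bp beyond lbl, at 3R from 21408387 to 21408826, and at -516 bp relative to the TSS of CheB93b, with a pooled signal of 99.5. There the order differed: replicate signals were 37.7, 25.4 and 35.5, and replicate 3 alone was above its median (relative mean 0.817 ± 0.280, SD, n = 3).

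Of the TALE cofactors, hth, which carries the Hox cofactor Exd into the nucleus, had 1 optimal peak in a gene of 132 kb. It lay in an intron 3618 bp downstream of a TSS, at 3R from 10635730 to 10636169, with a pooled signal of 110 and rank 888. Replicate signals were 19.8, 55.4 and 33.9, and the relative mean was 0.886 ± 0.403 (SD, n = 3). Replicates 2 and 3 were above their medians, and replicate 1 was below with a call of rank 5631. exd itself, the cofactor, had 0 calls in the relaxed pooled list, 1 call each in replicates 1 and 3, and 0 in replicate 2.

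Of the 7 segmentation genes 1 (14.3%), the pair-rule gene ftz, had an optimal peak, against 16.7% of other genes of the same lengths. It lay in the 3′ UTR, 1649 bp downstream of the TSS, at 3R from 6865753 to 6866192, with a pooled signal of 106 and rank 970. Replicate signals were 23.4, 62.0 and 22.7, and the relative mean was 0.843 ± 0.424 (SD, n = 3). All 3 replicates had a call within 60 bp of the summit. Replicate 2 was above its median there and the others were below, and replicate 2 had the 1 top call.

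Of the eye, head and glial genes, ey and ro had an optimal peak each. The peak of ey, a Pax6 gene required for eye formation, lay at -821 bp relative to its TSS, on chromosome 4 from 696648 to 697087, and at -813 bp relative to the TSS of myo, which encodes a ligand of the TGF-beta family, so that its distance to either gene is nearly equal. Its pooled signal was 97.8 and its rank 1150. Replicate signals were 66.9 in replicate 1 and 28.4 in replicate 2, and replicate 3 had no call within 200 bp (relative mean 1.02 ± 0.590, SD, n = 2). The single homeobox gene with a peak at a TSS thus had a top call there in replicate 1 alone.

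The peak of ro, a regulator of photoreceptor identity, lay 1018 bp beyond the gene, at 3R from 26875533 to 26875972, and at -11 bp relative to the TSS of Rb97D, which encodes an RNA-binding protein. Its pooled signal was 93.1 and its replicate signals were 31.1, 43.7 and 25.3, with a relative mean of 0.794 ± 0.131 (SD, n = 3). All 3 replicates were below their medians there. This window held both the GAGAG and the TATCGATA word in the sequence shown above.

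In the Iroquois complex, whose genes prepattern wing, eye and sensory organs, mirr had an optimal peak and ara and caup had none. The summit lay in an intron 1082 bp downstream of the TSS, at 3L from 12694501 to 12694940, with a pooled signal of 95.5. Replicate signals were 25.8, 36.0 and 33.1, and the relative mean was 0.783 ± 0.236 (SD, n = 3). Replicate 3 was the one above its median. A second call lay 19 bp from the mirr TSS with a pooled signal of 82.2, rank 1735, below the lowest optimal signal of 88.6. Its signals were 29.3 in replicate 1 and 43.5 in replicate 2, with no call within 200 bp in replicate 3.

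**Figure D2:**
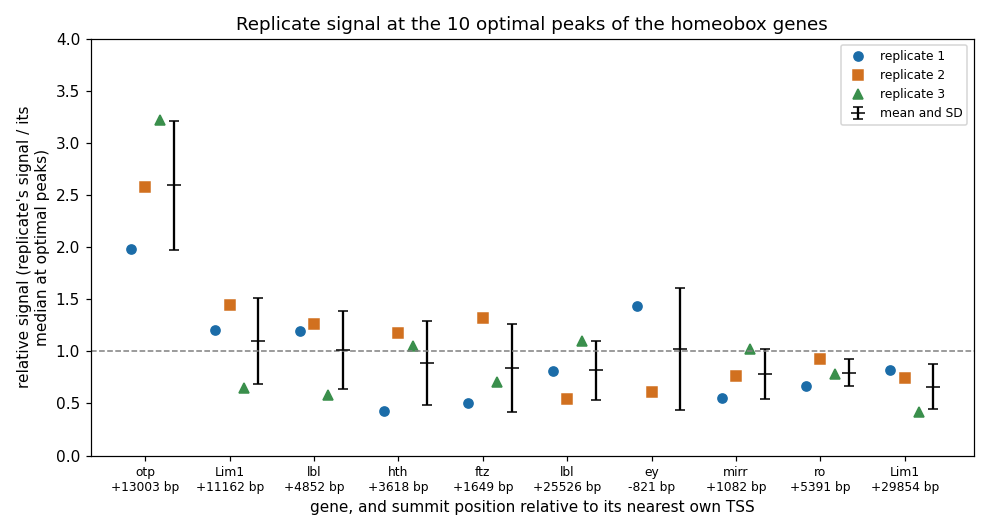
Relative signal (replicate signal divided by that replicate's median at optimal peaks, no unit) at the 10 optimal peaks of the homeobox genes, labelled by gene and summit position relative to the nearest TSS of that gene, with each replicate as a symbol and the mean and SD as bars. The otp peak lies above 1 (dashed line) in every replicate, from 1.98 to 3.22, and at the other peaks the replicates fall on both sides of 1 or below it.

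**Figure D3:**
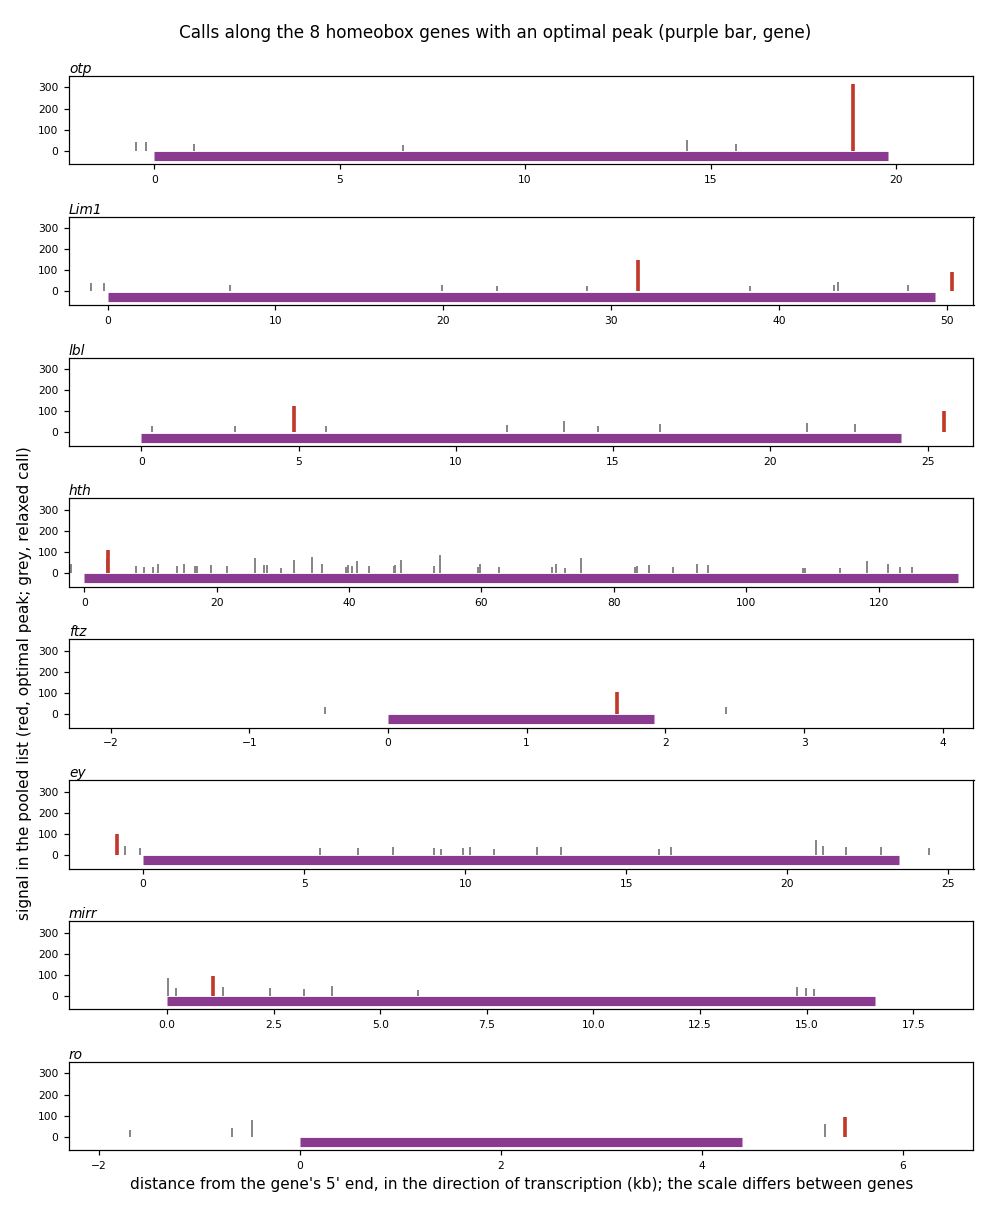
Optimal peaks (red) and relaxed pooled calls (grey) along the 8 genes with an optimal peak, each line as high as its pooled signal and the gene drawn as a purple bar. Distance in kb runs from the gene's most upstream end in the direction of transcription, so it can exceed the distance to the nearest TSS given in the text, and at hth 1 red line stands among 50 calls.

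Groups without an optimal peak over body and flanks were the maternal and zen-class genes (0 of 3), the columnar genes of the neuroectoderm (0 of 3), the appendage genes (0 of 4) and the POU and Cut genes (0 of 4). Other genes of the same lengths had shares of 15.9%, 17.4%, 22.1% and 31.3% in that order. These groups are small, and a count of 0 in 3 or 4 genes is not a result about them. In the groups with a peak not yet set beside such a share, the counts were 1 of 3 Iroquois genes (against 22.9%), 1 of 2 TALE cofactors (28.0%), 2 of 6 eye, head and glial genes (22.4%), 1 of 5 LIM-homeodomain genes (27.5%) and 1 of 7 other neural and head genes (21.6%).

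Below the optimal list, the best-placed genes had calls of nearly the same signal as its weakest peaks. Awh, a LIM-homeodomain gene of imaginal cells, had a call of pooled signal 81.4 at rank 1794, with 26.8, 42.1 and 13.4 in the replicates. The pair-rule gene prd had one of 80.1 at rank 1844, with 27.2, 39.2 and 17.6 in the replicates. In both genes replicate 2 gave the highest signal and replicate 3 the lowest.

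cad, a regulator of posterior identity, had a call of 80.0 at rank 1849, at -303 bp relative to its TSS, with no call in replicate 1, 27.1 in replicate 2 and 35.3 in replicate 3. The Iroquois gene caup had a call of 77.4 at rank 2015, 156 bp downstream of its TSS, with 20.9 in replicate 1, no call in replicate 2 and 29.2 in replicate 3. lbe, the paralog of lbl, had a call of 76.3 at rank 2075, at -40 bp relative to its TSS, with 11.6, 43.3 and 21.3 in the replicates. These 3 calls lay at the genes' own promoters, and the replicate without a call differed between cad and caup.

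The remaining 5 of the 10 best-placed genes were ct, a Cut-class regulator of sensory organs (rank 2101), unc-4, which acts in neurons (rank 2131), Dr, the dorsal columnar gene (rank 2242), the segment-polarity relative gsb-n (rank 2611) and toy, the second Pax6 gene (rank 2747). Their pooled signals were 67.9 to 75.9. The gsb-n call lay in the 3′ UTR of Nplp1, a neighbour whose TSS is nearer.

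**Figure D4:**
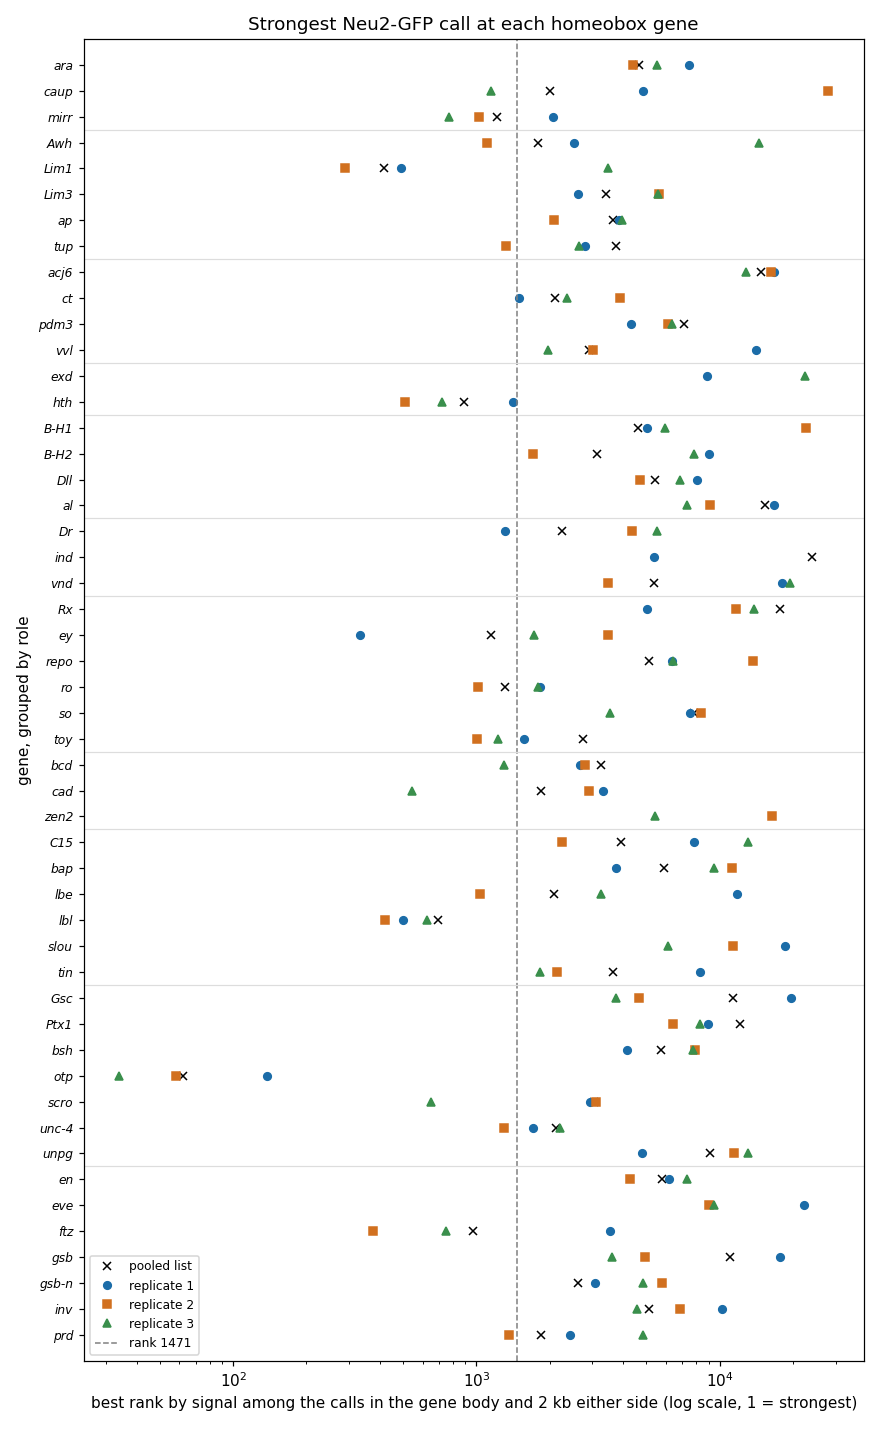
Rank by signal of the strongest call in the body with 2 kb either side of each of the 50 homeobox genes, in the pooled list (cross) and in replicates 1 to 3 (circle, square and triangle), on a log scale with genes grouped by role. The dashed line marks rank 1471, and otp, hth and lbl are the genes with all 3 replicate symbols left of it. At hth and lbl these symbols do not all stand for a call at the same site. Examples of genes where 1 replicate lies left of the line are caup, scro and cad.

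The replicates placed different genes among their top calls. Over the body and flanks, replicate 1 had a top call in 6 of the 50 genes (12%, against 15.1% of other genes), replicate 2 in 13 (26%, against 14.2%) and replicate 3 in 10 (20%, against 15.2%). Weighted to length, the shares of other genes were 22.1%, 21.1% and 22.4%, so replicate 2 lay above the share at like length and replicates 1 and 3 below it. Genes with a top call in all 3 replicates were otp, hth and lbl (6%, against 7.93% of other genes), and those with one in 2 were mirr, ftz, toy and Lim1 (8%, against 5.17%). A gene is counted here even where the replicates' top calls lie at different sites. This was so at hth and lbl, where no optimal peak was matched by a top call in more than 2 replicates. It was also so at mirr, ftz and toy. At mirr the top call of replicate 2 lay 19 bp from the TSS and that of replicate 3 at the intronic peak. At toy they lay at -113 bp relative to the TSS and in the 3′ UTR. At ftz the top call of replicate 3 lay neither at the optimal peak nor within 1000 bp of the TSS. Lim1 alone of the genes with a top call in 2 replicates had both at the same peak. A further 12 genes had a top call in 1 replicate (24%, against 10.4%) and 31 had none (62%, against 76.5%). These 4 shares of other genes were not adjusted for length.

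At TSSs, 10 of the 50 genes had a top call within 1000 bp in 1 replicate (20%, against 6.74% of other genes) and 0 had one in 2 or 3. Of the 1975 other genes with such a call in any replicate, 1038 (52.6%) had one in 2 or 3 replicates. Replicate 1 had its call in ey (2%, against 8.77% of other genes). Replicate 2 had one in 6 genes, tup, mirr, ftz, lbe, toy and unc-4 (12%, against 8.41%). Replicate 3 had one in cad, caup and bcd, the anterior morphogen gene, which is named here after its values were seen (6%, against 8.92%). None of the 6 genes of replicate 2 had one in replicate 1 or 3, whereas 871 of the 1169 other genes with one in replicate 2 (74.5%) did. These shares were not compared at like rank, and the difference was not tested.

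In the relaxed lists the picture at TSSs was different, with more of the homeobox genes than of other genes having a call. A relaxed pooled call lay within 1000 bp of a TSS in 39 of the 50 genes (78%), against 59.9% of other genes, or 61.6% when these were weighted to numbers of TSSs. The same count was 36 genes in replicate 1 (72%, against 57.3%), 40 in replicate 2 (80%, against 59.4%) and 38 in replicate 3 (76%, against 58.4%). The 3 replicates thus gave like shares. The best such call of a homeobox gene was that of ey at rank 1150, and the median best rank at a TSS was 5829 over 39 homeobox genes and 7610 over 8330 other genes. Relaxed lists hold background as well as peaks, so a call in them is not a bound site.

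Over body and flanks, 46 of the 50 genes (92%) had a relaxed pooled call, against 81.6% of other genes. Neither this share nor the numbers of calls per gene were weighted to length. The median number was 5 calls per homeobox gene and 2 per other gene, or 3.60 and 2.83 per 10 kb of body and flanks. In genes of 2 to 5 kb the medians were 5.65 calls per 10 kb in homeobox genes and 3.19 in other genes, and in genes of 20 to 50 kb 3.91 and 2.16. In genes of 5 to 10 kb the order was reversed, with 3.00 in homeobox genes and 3.20 in other genes, and in genes under 2 kb it was 1.95 and 2.16. In all, 33 of the 50 homeobox genes had more calls per 10 kb than the median other gene of their length class.

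Genes with many relaxed pooled calls were hth with 50 (40, 49 and 43 in the replicates), scro, an NK-class gene of the nervous system, with 23 (19, 19 and 27), and ey with 20 (13, 16 and 18). They were followed by cad and the POU gene pdm3 with 15 each, the LIM gene Lim3 with 14 and tup, the fly Islet gene, with 13. Among these, cad had the highest number for its size, 9.14 per 10 kb, and pdm3 the lowest, 2.06. prd had 10.2 per 10 kb, with 7 calls in a gene of 2.83 kb.

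The 4 genes with no relaxed pooled call were exd, the pair-rule gene eve, the zen paralog zen2 and the muscle identity gene slou. eve had 1, 4 and 3 calls in replicates 1 to 3, none of better rank than 9009. zen2 had 0, 2 and 1 calls, and slou had 4, 3 and 1. Each of the 4 genes thus had calls in at least 2 replicates of the relaxed lists, none of better rank than 5406.

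**Figure D5:**
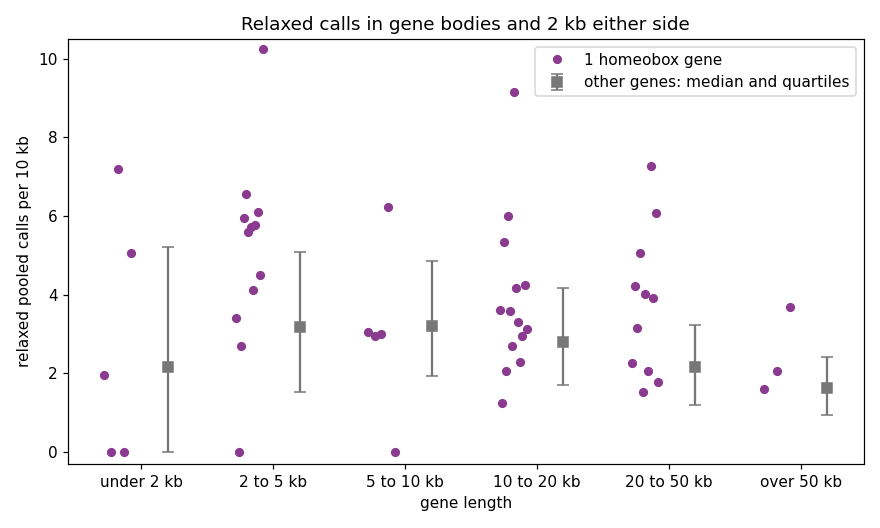
Relaxed pooled calls per 10 kb of gene body with 2 kb either side, by gene length, with each homeobox gene as a purple point and the other genes as a grey square (median) with bars to the quartiles. Points lie mostly above the square among genes of 2 to 5 kb, 10 to 20 kb and 20 to 50 kb, and 4 points are at 0.

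Other homeobox genes showed counts of their own. Of 37 further homeobox genes outside Hox, 6 (16.2%) had an optimal summit over body and flanks, against 21.0% of genes of the same lengths, and 2 had one at a TSS. Of the 8 Hox genes, 6 had one over body and flanks (75%), against 30.2% at the same lengths, and 0 had one at a TSS. Both counts at TSSs are small, and 8.75% of the 13895 genes other than the 50 had an optimal summit there. The lists of Hox and further homeobox genes were described and not tested against the 50 genes.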

How the data were processed

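ChIP-seq of Neu2-GFP was available for 3 biological replicates. Per the text accompanying the deposited files, the authors deposited an optimal list (peaks past an irreproducible discovery rate threshold) and relaxed lists for each replicate and for the pooled replicates, called against a control. Each call has a signal value, deposited by the authors on a scale that differs between libraries, a deposited −log10 q-value, which was not used for ranking, and a deposited summit offset in bp (another measure), which gave the summit. For the aligner, the peak caller and the threshold, names and values are not given in the sources used here. The dm3 lists and the control library were not analysed here.

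Summits were placed on the dm6 annotation of Ensembl release 115 (BDGP 6.54). On the plus strand, 99.87% of annotated start codons read ATG in the RefSeq genome. Gene bodies were extended by 2 kb, TSSs of all transcripts by 1000 bp, and replicate summits were matched within 200 bp. Other genes were weighted to 6 length classes. Python 3.11.15, numpy 2.4.6 and pandas 2.3.3 were used, and scripts were tested on simulated data. The members and lists were chosen with earlier results of these data known, so no test was made. Genes with an optimal peak are described in full. Of the rest, the 10 best-ranked, the 5 with most relaxed pooled calls and those with no relaxed pooled call are named. A gene that is no member is named where its TSS is nearer to a described peak. Alternatives were other windows, flanks, peak sets, numbers of top calls and length classes, and leaving out each replicate, which meant keeping the optimal peaks matched by top calls of both others. The cause of any difference was not tested.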

Additional observations from a re-analysis of the deposited data

How the results depend on the processing

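The count of homeobox genes with an optimal summit at a TSS was 1 and moved to 0 with a window of 500 bp (7.39% of other genes), to 3 with 2000 bp (11.1%), to 0 for peaks above the median signal (4.87%), to 0 for peaks matched in all 3 replicates (4.14%), and ranged from 0 to 0 when a replicate was left out (4.74% to 5.28%). Over body and flanks, 8 genes with 10 peaks (21.8% of other genes at like length) became 3 genes with 3 peaks above the median signal (12.6%) and 1 gene (otp) with 1 peak matched in all 3 replicates (10.96%). Both counts ranged from 2 (without replicate 1 or 2, 12.3% and 13.7%) to 3 (without replicate 3, 13.4%). Without flanks there were 6 peaks in 6 genes (12.6%), and 5 genes had a peak nearest to their own TSS (14.2%), an alternative chosen after seeing the data. With 3000 top calls the counts were 17, 19 and 17 in replicates 1 to 3 (like-length shares 37.0%, 36.2% and 36.9%), against 6, 13 and 10 with 1471. Without flanks the count was 6 in replicate 2 (13.3%), against 13 with flanks. The median number of relaxed calls per homeobox gene was 8 with 5 kb either side, against 4 per other gene (5 and 2 with 2 kb), without weighting to length. Stricter peak sets and fewer replicates leave fewer peaks by construction. The relative signals of the 10 peaks moved by less than the spread between replicates in every alternative run. For the runs that left out a replicate this was fixed in advance, because the mean is then taken over part of the same values. The ey peak, at 1.02 in the main run, was at 0.605 without replicate 1 and at 1.44 without replicate 2. No paired analysis was possible because there was 1 group of samples. The counts rest on 10 peaks, the replicates differed in which genes they placed among their top calls, and depth was unknown.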

Other observations

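Several of the 50 genes lie beside a paralog or another member, and the stretches between them were also read, with spans drawn after the data were seen. The NK-cluster stretch from tin to slou at 3R, 178 kb long, held 4 optimal peaks. Of these, 2 were the lbl peaks described above and 2 lay outside the genes' bodies and flanks. The stretch from zen2 through bcd to ftz, 123 kb long and within the Antennapedia complex, held 3 optimal peaks, of which 2 lay outside these genes and had Dfd and Scr as the nearest TSSs. The Iroquois stretch from ara to mirr, 129.6 kb long, held 1, the mirr peak, and the stretch with otp and Rx held 1, the otp peak. The stretches of en with inv, of gsb with gsb-n and of B-H1 with B-H2 held 0 optimal peaks each, and were 53.75, 24.26 and 88.7 kb long. No rate over the whole genome was set beside these counts. They are small and the stretches differ in length, so they are not a result about any stretch.

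Relaxed pooled calls per 10 kb of these stretches were 3.89 in the Iroquois stretch, 3.68 in the NK cluster, 3.62 from zen2 to ftz, 3.54 at gsb and gsb-n, 2.96 at otp and Rx, 2.08 at en and inv and 1.83 at B-H1 and B-H2. The 3 stretches without an optimal peak were the lowest 2 of this order and the fourth. For these values too, no rate over the whole genome was computed, and the order was not tested.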
